A study of Homo sapiens with 9 samples.

Results

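The antioxidant genes described here are 9 target genes of the transcription factor NRF2 (HMOX1, NQO1, GCLC, GCLM, TXNRD1, SLC7A11, SRXN1, FTL and FTH1) and KEAP1, the repressor of NRF2. They were chosen by name as 10 of the 58734 genes in a count table. The choice used no rule on measured values, but earlier results of these data were known when it was made. Of the 10 genes, 9 had enough counts for a test among 16686 tested genes, and SRXN1 did not.

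The counts come from poly-A selected, stranded RNA sequencing of HEK293T, an established line of human embryonic kidney origin with the large T antigen of SV40. Cells grown in DMEM with fetal bovine serum were transfected with 10 nM Silencer Select siRNA in Lipofectamine RNAiMAX for 36 h, the siRNA being a control or one that targets SIN3A or SIN3B, and 3 libraries were made per group. SIN3A and SIN3B are paralogous scaffolds of histone deacetylase complexes, and the comparisons ask how lowering each of them changes the transcriptome. The groups follow the sample titles, since the treatment label names the control siRNA in all 9 samples.

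NRF2, encoded by NFE2L2, binds antioxidant response elements together with a small MAF protein and switches on genes for glutathione, thioredoxin, quinone reduction, heme breakdown and iron storage. In resting cells KEAP1 hands NRF2 to a CUL3 ubiquitin ligase for destruction, and electrophiles or oxidants that modify KEAP1 let NRF2 accumulate. BACH1 competes with NRF2 for the same elements and is released by heme, a control for which HMOX1 is the best known target.

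Each library held between 22542798 and 27084884 deposited counts. At least 98% of the nonzero counts in each library were multiples of 4, so 12 counts (3 such units) were taken as the floor, which lay at 0.442 to 0.552 CPM (counts per 1e6 library counts, with edgeR's TMM factors) and covers counting error only. Why the counts come in multiples of 4 is not given in the sources used here. If each read was counted 4 times, the totals overstate the reads by 4 times. On counts divided by 4 the calls of the 9 genes against control came to 3 and 4, as on the deposited counts. SIN3A fell by 1.62 ± 0.07 (log2 fold change ± SE, edgeR adjusted p = 1.1e-10) in its own knockdown, and SIN3B fell by 0.80 ± 0.09 (edgeR adjusted p = 4.7e-06) in its own. The paralog had a log2 fold change of 0.01 ± 0.09 and -0.01 ± 0.07 (edgeR adjusted p = 0.95 and 0.97). The targets fell by 67.5% (SIN3A) and 42.7% (SIN3B). In comparisons between the knockdowns, the gene targeted and the depth of knockdown therefore cannot be told apart. All 8 listed embryonic kidney line markers were expressed, summing to 1230 to 1360 CPM in control, 1040 to 1280 CPM in SIN3A knockdown and 974 to 1030 CPM in SIN3B knockdown libraries. Of these 8, 0 rose and 4 fell after SIN3A knockdown (KRT8, EYA1, NEFM and INA), and 1 rose (EYA1) and 2 fell (NEFM and INA) after SIN3B knockdown. That is 50% and 37.5% called, against 22.7% and 23.6% of all tested genes. COL1A2 and DCN of fibroblasts, PTPRC, CD3E and HBB of blood cells, and TTR, SERPINA1 and CYP3A4 of hepatocytes had no count in any library. All 6 blood cell markers summed to 0.702 to 0.939 CPM (control), 0.783 to 1.72 CPM (SIN3A) and 1.33 to 2.4 CPM (SIN3B). All 5 hepatocyte markers summed to 0 to 0.878, 0.47 to 0.94 and 0.16 to 0.612 CPM in the same groups. In each of these lists 1 gene was tested, and 0 were called against control. The whole list of 6 fibroblast markers summed to 27.0 to 28.3 CPM in the control, 27.6 to 37.7 CPM in the SIN3A knockdown and 26.4 to 30.8 CPM in the SIN3B knockdown libraries, and COL1A1 of that list rose after SIN3A knockdown (0.39 ± 0.13, edgeR adjusted p = 0.033). The part of these markers in the results was not tested. The SIN3A knockdown libraries lay further apart (3.53 to 7.37 for chi-square over degrees of freedom between replicates, on counts divided by 4) than the control or SIN3B knockdown libraries (1.42 to 1.98). Whether replicates were separate transfections is not in the labels, so p-values reflect only the spread of these libraries, which may be technical. In bulk RNA, fewer cells that express a gene and less RNA per cell cannot be told apart.

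The counted resting level of the 10 genes spanned from the ferritins, among the most abundant transcripts of the line, to SRXN1 near 0. Most exon bases of SRXN1 are also annotated to another gene, so its count and its place in this order are uncertain. Per kilobase of exon, FTL was at 646 ± 11.8 CPM per kb (SD, n = 3 control libraries) and FTH1 at 336 ± 18.5 CPM per kb. HMOX1 followed with 19.4 ± 1.41, TXNRD1 with 18.0 ± 0.659 and KEAP1 with 15.9 ± 0.898 CPM per kb. GCLM (4.88 ± 0.297), GCLC (4.31 ± 0.261), SLC7A11 (1.97 ± 0.567) and NQO1 (1.78 ± 0.146 CPM per kb) were lower, and SRXN1 was last at 0.0410 ± 0.0357 CPM per kb. HMOX1 and TXNRD1, GCLM and GCLC, and SLC7A11 and NQO1 were neighbours whose control libraries overlapped, so their order was not resolved. In the knockdowns HMOX1 dropped to 7.17 ± 1.35 CPM per kb (SIN3A) and 10.2 ± 1.82 CPM per kb (SIN3B), below KEAP1 at 13.6 ± 1.64 and 17.6 ± 0.442 CPM per kb.

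**Figure D1:**
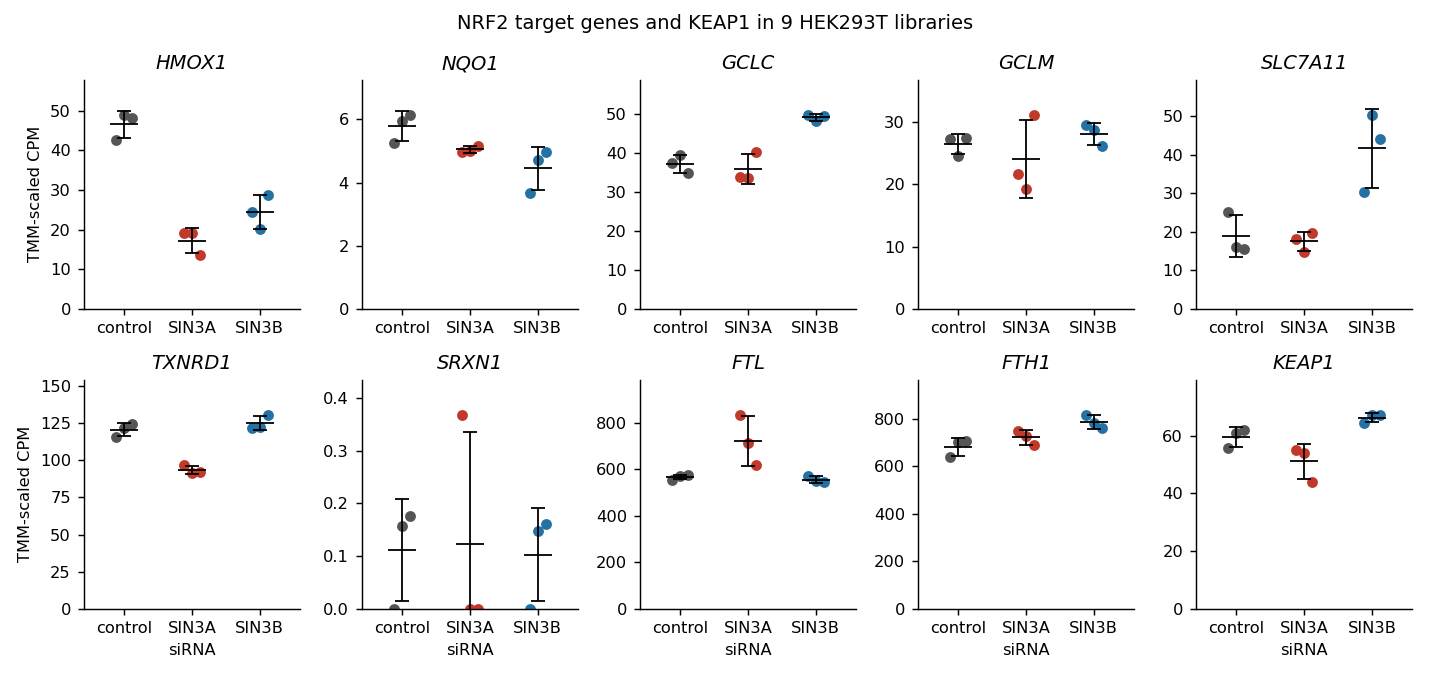
Level of each of the 10 genes in the 9 libraries (TMM-scaled CPM, each panel on its own axis from 0). Points are libraries, and bars give the mean and SD of 3 libraries. HMOX1 is lower in all 6 knockdown libraries than in the 3 control libraries. SLC7A11 and GCLC are higher in the SIN3B knockdown libraries than in all others. TXNRD1 is lower and FTL higher in the SIN3A knockdown libraries than in all others. The counts of SRXN1, which are uncertain because its exons overlap another gene, stay under the floor throughout.

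The 10 genes did not move together in either knockdown. Of the 9 tested genes, 1 rose, 2 fell and 6 were not called in the SIN3A knockdown (edgeR quasi-likelihood test, adjusted p under 0.05 over all genes), with a median log2 fold change of -0.14 against 0.00 for all genes. In that comparison 22.7% of all tested genes were called, 12% that rose and 10.8% that fell. After SIN3B knockdown, 3 rose, 1 fell and 5 were not called, with a median of 0.09 against -0.01 for all genes, and 23.6% of all tested genes were called (12% rose and 11.6% fell). Libraries of knockdown and control did not overlap for 5 of the 9 genes (SIN3A) and 6 of the 9 (SIN3B), against 36.4% and 43% of all tested genes. Between the knockdowns, 6 of the 9 genes differed, 1 higher and 5 lower in the SIN3A knockdown, where 27.1% of all tested genes were called (14.4% higher and 12.6% lower). Libraries of 8 of the 9 genes did not overlap, against 39.3% of all tested genes. Both comparisons against control use the same 3 control libraries, so they are given side by side and are not independent of each other. HMOX1 was the only one of the 9 genes called in both. With a test against a fold threshold of 1.2 in place of 0, the calls came to 1 (SIN3A), 2 (SIN3B) and 2 (between the knockdowns), namely HMOX1 in each knockdown, SLC7A11 in the SIN3B knockdown, and SLC7A11 and TXNRD1 between the knockdowns.

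**Figure D2:**
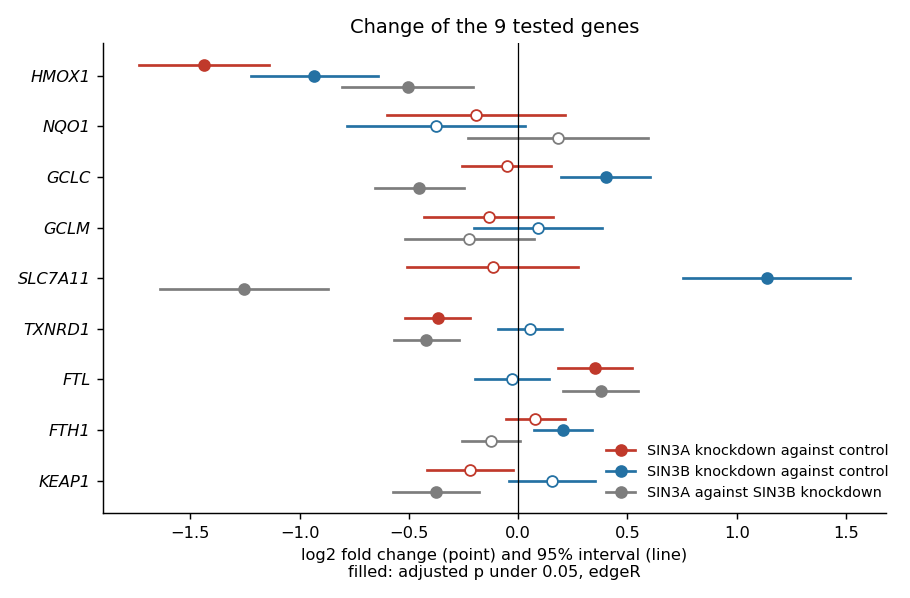
Log2 fold change (point) with its 95% interval (line) of the 9 tested genes for the 3 comparisons, from edgeR. Filled points passed the adjusted p threshold of 0.05. HMOX1 lies left of 0 in both knockdowns, SLC7A11 lies at 1.14 in the SIN3B knockdown and near 0 in the SIN3A knockdown, and TXNRD1, GCLC and FTL passed in 1 knockdown each.

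HMOX1 (ENSG00000100292, chr22:35380361-35394214, plus strand, GRCh38) encodes heme oxygenase 1, the inducible enzyme that opens heme to biliverdin, carbon monoxide and iron. It was at 42.8, 49.0 and 48.1 CPM in the control libraries, at 19.1, 19.1 and 13.5 CPM in the SIN3A knockdown and at 24.5, 20.1 and 28.8 CPM in the SIN3B knockdown. All 6 knockdown libraries lay below the lowest control library, and the SIN3A knockdown libraries lay below those of the SIN3B knockdown. The log2 fold change was -1.44 ± 0.14 after SIN3A knockdown (the level fell by 63.1%, edgeR adjusted p = 1.4e-06) and -0.93 ± 0.14 after SIN3B knockdown (it fell by 47.6%, edgeR adjusted p = 9.4e-05). Only 3.38% of all tested genes had a larger change in either direction after SIN3A knockdown, and 6.81% after SIN3B knockdown. The SIN3A knockdown was 0.51 ± 0.14 log2 units lower than the SIN3B knockdown (edgeR adjusted p = 0.013). That difference lost its call without replicate 3 of the SIN3A knockdown (-0.35, adjusted p = 0.0553, edgeR), without replicate 3 of the SIN3B knockdown (-0.37, adjusted p = 0.104, edgeR) and with limma on log2 FPKM (-0.50, adjusted p = 0.0528).

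HMOX2, the constitutive heme oxygenase, was added to the named genes after its values were seen. Its CPM was 67.1, 67.9 and 62.9 in control libraries, 86.8, 82.0 and 79.6 after SIN3A knockdown and 62.0, 60.3 and 64.2 after SIN3B knockdown. The SIN3A knockdown libraries all lay above the others, and HMOX2 rose there by 0.33 ± 0.08 (log2, edgeR adjusted p = 0.0053), whereas its log2 fold change after SIN3B knockdown was -0.09 ± 0.08 (edgeR adjusted p = 0.49). Per kilobase, HMOX1 and HMOX2 stood at 19.4 and 17.4 CPM per kb in control libraries and at 7.17 and 21.8 CPM per kb in the SIN3A knockdown.

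SLC7A11 (ENSG00000151012, chr4:138164097-138242349, minus strand) encodes the cystine carrier of system xc-, which brings in the sulfur amino acid for glutathione. It was at 25.3, 16.0 and 15.6 CPM in the control, 18.0, 14.9 and 19.6 CPM in the SIN3A knockdown and 30.5, 50.4 and 44.2 CPM in the SIN3B knockdown libraries. Each SIN3B knockdown library lay above every other library, and control replicate 1 lay above the other two controls. The gene rose 2.20-fold after SIN3B knockdown (log2 fold change 1.14 ± 0.18, edgeR adjusted p = 0.00019), a change exceeded in size by 4.03% of tested genes. When GC content and exon length entered as offsets the log2 change was 0.71 (adjusted p = 0.000929, edgeR), and leaving out 1 library at a time gave 0.98 to 1.40. After SIN3A knockdown it was -0.12 ± 0.19 (edgeR adjusted p = 0.71), and the 2 knockdowns differed by 1.25 ± 0.18 (edgeR adjusted p = 4.8e-05).

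GCLC and GCLM encode the catalytic and modifier subunits of glutamate-cysteine ligase, the rate-limiting enzyme of glutathione synthesis. GCLC (ENSG00000001084, chr6:53497341-53616970, minus strand) was at 37.5, 39.5 and 35.0 CPM in control libraries, 33.9, 33.7 and 40.4 CPM after SIN3A knockdown and 49.9, 48.2 and 49.6 CPM after SIN3B knockdown. Its 3 SIN3B knockdown libraries lay above all others, and it rose there by 0.40 ± 0.10 (log2, edgeR adjusted p = 0.0051), against -0.05 ± 0.10 after SIN3A knockdown (edgeR adjusted p = 0.76). The difference between the knockdowns was itself called (-0.45 ± 0.10, edgeR adjusted p = 0.0017). GCLM (ENSG00000023909, chr1:93885205-93909456, minus strand) was at 27.3, 24.6 and 27.4 CPM in control libraries, 21.7, 19.3 and 31.2 CPM after SIN3A knockdown and 29.5, 28.8 and 26.1 CPM after SIN3B knockdown. GCLM libraries of the 3 groups overlapped, and its log2 fold changes were -0.14 ± 0.14 and 0.09 ± 0.14 (edgeR adjusted p = 0.55 and 0.72). SIN3A knockdown replicate 3 stood apart from the other two for this gene, and without it the log2 fold change of GCLM was -0.37 (adjusted p = 0.0319, edgeR) against control and -0.46 (adjusted p = 0.00575, edgeR) against the SIN3B knockdown. Across the 9 libraries the log2 levels of GCLC and SLC7A11 had a Pearson r of 0.863, which is a description of libraries that share their group.

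TXNRD1 (ENSG00000198431, chr12:104215779-104350305, plus strand) encodes the cytosolic thioredoxin reductase, a selenoprotein that uses NADPH to keep thioredoxin reduced. It was at 115.9, 121.8 and 124.5 CPM in control libraries, 97.0, 91.4 and 92.3 CPM after SIN3A knockdown and 122, 123 and 131 CPM after SIN3B knockdown. The SIN3A knockdown libraries lay below all others, and TXNRD1 fell by 0.37 ± 0.07 there (log2, edgeR adjusted p = 0.0012), whereas the log2 fold change after SIN3B knockdown was 0.05 ± 0.07 (edgeR adjusted p = 0.66). The knockdowns differed by -0.42 ± 0.07 (edgeR adjusted p = 0.00019).

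SRXN1 (ENSG00000271303, chr20:646615-653370, minus strand) encodes sulfiredoxin, which restores overoxidised peroxiredoxins. It had at most 8 counts in any library, under the floor of 12, and its levels of 0 to 0.368 CPM do not allow a comparison. Of its 2698 exon bases 2292 are also annotated to AL121758.1 on the same strand, which had no count in any library. How the counting assigned reads on the shared bases is not given in the sources used here, so the count of SRXN1 is uncertain.

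NQO1 (ENSG00000181019, chr16:69706996-69726951, minus strand) encodes the quinone reductase that is the most used marker of NRF2 activity. Its level was low, at 5.25, 5.95 and 6.15 CPM in control libraries, 4.97, 5.01 and 5.17 CPM after SIN3A knockdown and 3.67, 4.72 and 4.96 CPM after SIN3B knockdown. All knockdown libraries lay below the lowest control library, but neither change passed the test (-0.19 ± 0.20 and -0.38 ± 0.20, edgeR adjusted p = 0.53 and 0.19). The 95% intervals of the log2 change ran from -0.60 to 0.21 and from -0.79 to 0.03.

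FTL and FTH1 encode the light and heavy chains of ferritin, the iron store, whose mRNAs carry iron-responsive elements and whose heavy chain oxidises iron. FTL (ENSG00000087086, chr19:48965301-48966878, plus strand) was at 555, 571 and 575 CPM in control libraries, 836, 712 and 620 CPM after SIN3A knockdown and 572, 549 and 548 CPM after SIN3B knockdown. The SIN3A knockdown libraries lay above the others and were spread widely, and FTL rose there by 0.35 ± 0.08 (log2, edgeR adjusted p = 0.0044), with 0.25 to 0.45 when 1 library was left out at a time. Its log2 fold change after SIN3B knockdown was -0.03 ± 0.08 (edgeR adjusted p = 0.86), and the knockdowns differed by 0.38 ± 0.08 (edgeR adjusted p = 0.0018). FTH1 (ENSG00000167996, chr11:61959718-61967660, minus strand) was at 639, 703 and 705 CPM in control libraries, 748, 727 and 687 CPM after SIN3A knockdown and 817, 783 and 758 CPM after SIN3B knockdown. The SIN3B knockdown libraries lay above the rest, and FTH1 rose by 0.20 ± 0.06 (edgeR adjusted p = 0.024), against 0.08 ± 0.06 after SIN3A knockdown (edgeR adjusted p = 0.41). The FTH1 call did not last: it was lost without control replicate 1 (0.16, adjusted p = 0.143, edgeR), control replicate 2 (0.21, adjusted p = 0.0502, edgeR), SIN3B knockdown replicate 1 (0.16, adjusted p = 0.133, edgeR) or SIN3B knockdown replicate 2 (0.21, adjusted p = 0.0784, edgeR) and with upper-quartile factors (0.17, adjusted p = 0.0835, edgeR).

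Ferritin genes have many processed copies in the genome that could take some of their reads. Of 25 annotated FTH1 copies 13 had counts, summing to 0.954 to 2.66 CPM per library, which is 0.149% to 0.365% of the FTH1 and copy total. Of 16 FTL copies 4 had counts, with at most 0.878 CPM or 0.153% in any library. These shares cover counted reads only. They cannot show whether reads that match both a ferritin gene and its copies were left out of the counts. FTH1 also shares 1267 of its 2030 exon bases with BEST1 on the opposite strand, at 2.04 to 5.45 CPM, and whether the counting used strand is not given in the sources used here. The antisense neighbours of NQO1 and SLC7A11 had no count in any library.

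KEAP1 (ENSG00000079999, chr19:10486120-10503741, minus strand) was at 55.8, 60.9 and 62.2 CPM in control libraries, 55.2, 54.2 and 44.0 CPM after SIN3A knockdown and 64.4, 67.2 and 67.4 CPM after SIN3B knockdown. The control libraries lay between those of the 2 knockdowns. Neither change against control passed the test (-0.22 ± 0.09, edgeR adjusted p = 0.099, and 0.15 ± 0.09, edgeR adjusted p = 0.27), but the SIN3A knockdown was lower than the SIN3B knockdown by a log2 difference of -0.38 ± 0.09 (edgeR adjusted p = 0.0052). Other settings called KEAP1 against control: with upper-quartile factors its log2 fold change after SIN3A knockdown was -0.29 (adjusted p = 0.0349, edgeR), and when GC content and exon length entered as offsets its change after SIN3B knockdown was 0.35 (adjusted p = 0.00406, edgeR). Leaving out 1 library at a time gave -0.27 to -0.12 after SIN3A knockdown, with -0.12 without its replicate 3 (adjusted p = 0.365, edgeR), and no call.

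The NRF2 control list held 13 other genes, among them NFE2L2 and the related NFE2L1 and NFE2L3. Of these 13, 3 rose and 2 fell after SIN3A knockdown, and 4 rose and 2 fell after SIN3B knockdown. The shares called were 38.5% and 46.2%, against 22.7% and 23.6% of all tested genes. NFE2L2, which encodes NRF2 itself, was at 48.3, 51.2 and 46.9 CPM in control libraries, 64.0, 56.8 and 58.0 CPM after SIN3A knockdown and 55.1, 62.7 and 68.4 CPM after SIN3B knockdown. All knockdown libraries lay above the controls, with log2 fold changes of 0.29 ± 0.09 (edgeR adjusted p = 0.032) and 0.35 ± 0.09 (edgeR adjusted p = 0.011). Both calls were marginal. The SIN3A call was lost without control replicate 1, 2 or 3 (0.28, 0.32 and 0.27, adjusted p = 0.0974, 0.0568 and 0.103, edgeR) or SIN3A knockdown replicate 1 (0.25, adjusted p = 0.0644, edgeR), with upper-quartile factors (0.22, adjusted p = 0.101, edgeR) and with limma (adjusted p = 0.0535). The SIN3B call was lost without control replicate 3 (0.32, adjusted p = 0.0544, edgeR) or SIN3B knockdown replicate 3 (0.27, adjusted p = 0.0877, edgeR).

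NFE2L1, the related factor NRF1 that drives proteasome genes, fell in both knockdowns, from 193, 202 and 204 CPM in control libraries to 146, 153 and 147 CPM (-0.42 ± 0.07, edgeR adjusted p = 0.00021) and 144, 138 and 150 CPM (-0.47 ± 0.07, edgeR adjusted p = 6.3e-05). GSK3B, a kinase that marks NRF2 for a KEAP1-independent route of destruction, moved in opposite directions. It went from 53.4, 58.4 and 63.8 CPM in control libraries to 40.5, 40.1 and 44.2 CPM after SIN3A knockdown (-0.49 ± 0.09, edgeR adjusted p = 0.0007) and to 79.6, 77.4 and 85.0 CPM after SIN3B knockdown (0.46 ± 0.09, edgeR adjusted p = 0.00079). No library of 1 group overlapped another, and the knockdowns differed by -0.96 ± 0.09 (edgeR adjusted p = 2.3e-07). SQSTM1, the autophagy adaptor p62 that sequesters KEAP1, rose after SIN3A knockdown (0.40 ± 0.09, edgeR adjusted p = 0.0027), as did MAFK, a small MAF partner (0.37 ± 0.10, edgeR adjusted p = 0.011), whose call was lost without control replicate 2 (0.32, adjusted p = 0.0724, edgeR).

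BACH1, the heme-sensing repressor of HMOX1, was at 19.1, 16.6 and 18.8 CPM in control libraries, 22.1, 19.1 and 29.6 CPM after SIN3A knockdown and 25.0, 29.2 and 27.5 CPM after SIN3B knockdown. It rose by 0.59 ± 0.14 after SIN3B knockdown (edgeR adjusted p = 0.0046), or by 0.33 with the GC and length offsets (adjusted p = 0.0359, edgeR). Its log2 fold change after SIN3A knockdown was 0.38 ± 0.14 (edgeR adjusted p = 0.058), and it rested on replicate 3 of that knockdown, without which it was 0.18 (adjusted p = 0.348, edgeR). It was 0.44 without replicate 1 (adjusted p = 0.0453, edgeR) and 0.51 without replicate 2 (adjusted p = 0.0128, edgeR). CUL3, the ligase scaffold, rose after SIN3B knockdown (0.38 ± 0.08, edgeR adjusted p = 0.0013), but with the GC and length offsets its change was 0.07 (adjusted p = 0.532, edgeR). NFE2L3 fell there by 0.45 ± 0.12 (edgeR adjusted p = 0.0087). MAFF, another small MAF gene, was not called against control (0.58 ± 0.22 and -0.57 ± 0.23, edgeR adjusted p = 0.069 and 0.083), but was 1.15 ± 0.23 log2 units higher in the SIN3A than in the SIN3B knockdown (edgeR adjusted p = 0.00086). Leaving out 1 library at a time gave 0.40 to 0.75 for MAFF after SIN3A knockdown, called without SIN3A knockdown replicate 3 (0.75, adjusted p = 0.0232, edgeR) or SIN3B knockdown replicate 1 (0.57, adjusted p = 0.0399, edgeR) and lowest without SIN3A knockdown replicate 1 (0.40, adjusted p = 0.241, edgeR). After SIN3B knockdown it gave -0.92 to -0.38, called only without SIN3B knockdown replicate 1 (-0.92, adjusted p = 0.00809, edgeR) and nearest to 0 without replicate 2 of that knockdown (-0.38, adjusted p = 0.342, edgeR).

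A wider set of 8 lists held 139 genes of glutathione, thioredoxin, NADPH, heme, iron, detoxification and ATF4 biology and the NRF2 control genes, of which 127 were tested. In the SIN3A knockdown 24 rose and 18 fell (33.1% called, against 22.7% of all tested genes), and in the SIN3B knockdown 13 rose and 25 fell (29.9% called, against 23.6%). The SIN3A count came to 16 that rose and 11 that fell without control replicate 1 and to 18 and 7 without control replicate 3. These splits depend on the scaling. Upper-quartile factors gave 14 that rose and 21 that fell in the SIN3A knockdown, and the GC and length offsets gave 26 and 20 in the SIN3B knockdown. Over all genes the upper-quartile factors moved the SIN3A calls from 1997 that rose and 1794 that fell to 1340 and 2298.

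Glutathione use, transport and supply had 26 tested genes other than the 3 described above. After SIN3A knockdown 3 rose and 1 fell (median log2 fold change 0.07). After SIN3B knockdown 1 rose and 8 fell (median -0.21, against -0.01 for all genes). The shares called were 15.4% and 34.6%, against 22.7% and 23.6% of all tested genes. With the GC and length offsets 4 rose and 6 fell after SIN3B knockdown. GSR, glutathione reductase, which uses NADPH to recycle oxidised glutathione, fell from 81.2, 84.8 and 85.9 CPM in control libraries to 41.9, 43.1 and 53.8 CPM after SIN3B knockdown (-0.86 ± 0.09, edgeR adjusted p = 3.5e-06). The glutathione transferase GSTM3 fell by 0.51 ± 0.10 there (edgeR adjusted p = 0.00083). GPX4, the selenoenzyme that reduces lipid peroxides, rose after SIN3A knockdown (0.41 ± 0.09, edgeR adjusted p = 0.002). Between the knockdowns, 10 of the 26 genes were higher and 0 lower in the SIN3A knockdown and 16 were not called, where 14.4% of all tested genes were higher.

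Of 20 thioredoxin and peroxiredoxin genes, 6 rose and 2 fell after SIN3A knockdown, and 5 rose and 0 fell after SIN3B knockdown. That is 40% and 25% called, against 22.7% and 23.6% of all tested genes. PRDX1, the abundant cytosolic peroxiredoxin and another known NRF2 target, was at 270, 299 and 272 CPM in control libraries, 557, 445 and 406 CPM after SIN3A knockdown and 383, 379 and 385 CPM after SIN3B knockdown. All 6 knockdown libraries lay above the controls, with log2 fold changes of 0.74 ± 0.09 (edgeR adjusted p = 1.2e-05) and 0.45 ± 0.09 (edgeR adjusted p = 0.0011). The methionine sulfoxide reductase MSRB1 (0.56 ± 0.11, edgeR adjusted p = 0.0011) and SELENOW (0.43 ± 0.10, edgeR adjusted p = 0.0038), both selenoproteins, rose after SIN3A knockdown. SELENOT (0.73 ± 0.10, edgeR adjusted p = 2.5e-05) and the mitochondrial PRDX3 (0.34 ± 0.07, edgeR adjusted p = 0.0022) rose after SIN3B knockdown, SELENOT by 0.31 with the GC and length offsets.

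NADPH is the electron donor of glutathione reductase, thioredoxin reductase and NQO1. Of 10 listed genes that supply it, 3 rose and 3 fell after SIN3A knockdown and 0 rose and 5 fell after SIN3B knockdown. The shares called were 60% and 50%, against 22.7% and 23.6% of all tested genes. Upper-quartile factors gave 1 and 3 in the SIN3A knockdown, and the GC and length offsets gave 2 and 4 in the SIN3B knockdown. IDH1, the cytosolic isocitrate dehydrogenase, fell in both, by 0.81 ± 0.10 and 1.28 ± 0.11 (edgeR adjusted p = 3e-05 and 1.2e-07).

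In heme and iron handling, 5 of 24 tested genes rose and 3 fell after SIN3A knockdown, and 1 rose and 4 fell after SIN3B knockdown. The shares called were 33.3% and 20.8%, against 22.7% and 23.6% of all tested genes. Upper-quartile factors gave 3 and 4 in the SIN3A knockdown, and the GC and length offsets gave 3 and 3 in the SIN3B knockdown. SLC40A1, ferroportin, the iron exporter and a known NRF2 and BACH1 target, fell after SIN3A knockdown from 3.50, 4.07 and 3.69 CPM to 0.736, 1.57 and 0.783 CPM (-1.85 ± 0.34, edgeR adjusted p = 0.00083). It stood at 2.76, 2.80 and 4.80 CPM after SIN3B knockdown (-0.12 ± 0.31, edgeR adjusted p = 0.7). SLC40A1 in SIN3A knockdown replicates 1 and 3 lay close to their floors of 0.552 and 0.47 CPM. Alternatives other than the fold threshold gave -2.29 to -1.37 for that knockdown, and none lost the call. UROD of heme synthesis (0.58 ± 0.08, edgeR adjusted p = 5.1e-05) and BLVRB, a biliverdin reductase (0.52 ± 0.11, edgeR adjusted p = 0.0026), rose after SIN3A knockdown. FECH, ferrochelatase, which completes heme by inserting iron, fell by 0.93 ± 0.12 after SIN3B knockdown (edgeR adjusted p = 2.4e-05), and IREB2, the iron regulatory protein IRP2 that binds ferritin mRNA, rose by 0.70 ± 0.11 there (edgeR adjusted p = 0.00017), or by 0.42 with the GC and length offsets.

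Of 17 tested detoxification and export genes, 1 rose and 2 fell after SIN3A knockdown and 0 rose and 4 fell after SIN3B knockdown (17.6% and 23.5% called, against 22.7% and 23.6% of all tested genes), among them PIR, an iron-binding nuclear protein (-0.71 ± 0.13, edgeR adjusted p = 0.00061, SIN3A), and the aldose reductase AKR1B1 and epoxide hydrolase EPHX1 (-0.44 ± 0.07 and -0.52 ± 0.10, edgeR adjusted p = 0.0002 and 0.00065, SIN3B). The ATF4 amino acid response, which can also drive SLC7A11, had 15 listed genes. Of these, 1 rose and 5 fell after SIN3A knockdown and 1 rose and 2 fell after SIN3B knockdown. That is 40% and 20% called, against 22.7% and 23.6% of all tested genes. With the GC and length offsets the SIN3B knockdown counts were 2 and 4 for detoxification and export and 3 and 1 for the ATF4 list. Medians of the ATF4 list were -0.17 and 0.00 with TMM factors, and -0.13 and 0.17 with the GC and length offsets (SIN3A and SIN3B knockdown). DDIT4, an mTORC1 inhibitor, fell (-0.74 ± 0.10 and -0.84 ± 0.10, edgeR adjusted p = 5.3e-05 and 1e-05) and SESN2, a leucine sensor, rose (0.28 ± 0.07 and 0.43 ± 0.07, edgeR adjusted p = 0.0055 and 0.00016) in both knockdowns. SLC3A2, the partner chain of SLC7A11, had log2 fold changes of -0.02 ± 0.07 and 0.00 ± 0.07 (edgeR adjusted p = 0.87 and 0.98). Of 4 tested superoxide dismutase and catalase genes, 2 rose after SIN3A knockdown and 1 after SIN3B knockdown, against 1 and 0 with upper-quartile factors. With TMM factors that is 50% and 25% called, against 22.7% and 23.6% of all tested genes.

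**Figure D3:**
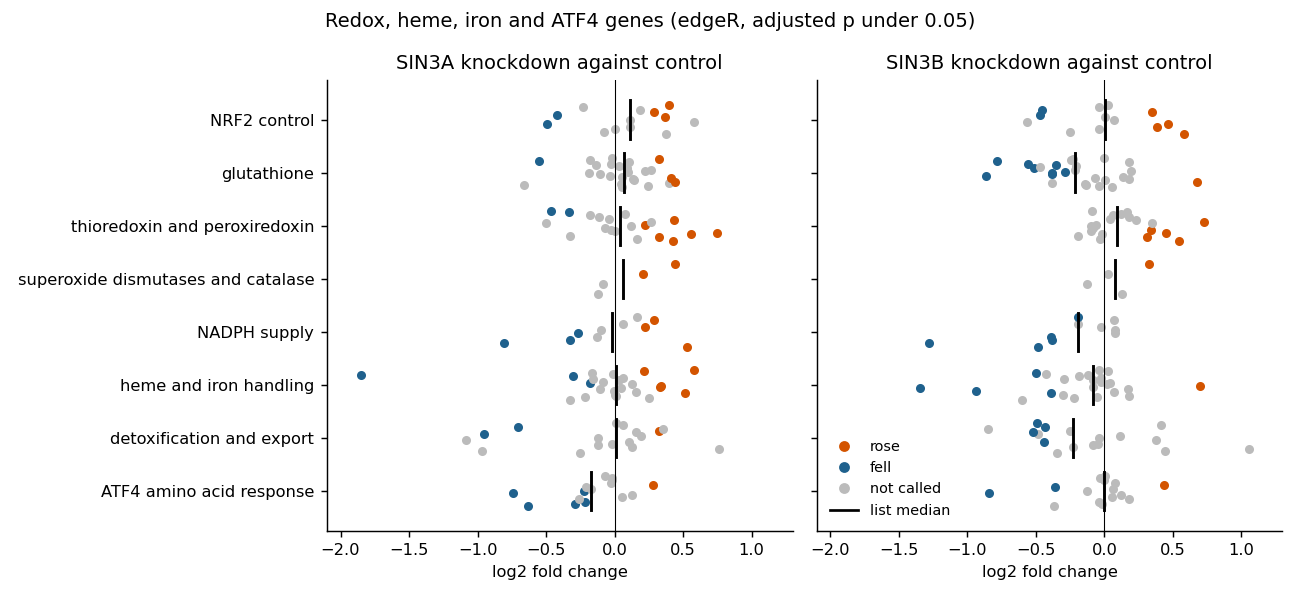
Log2 fold change of each tested gene of the 8 lists in both knockdowns against control, from edgeR. Points are genes (orange rose, blue fell, grey not called), and vertical bars are list medians. The glutathione list lies to the left of 0 in the SIN3B knockdown (median -0.21, 8 fell). It lies slightly to the right in the SIN3A knockdown (median 0.07). In the SIN3B knockdown, detoxification and export (-0.23) and NADPH supply (-0.19) had similar medians. Thioredoxin and peroxiredoxin (0.09) and superoxide dismutases and catalase (0.08) lay to the right of 0. The other lists had medians of -0.085 to 0.003 there.

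The genes whose log2 levels followed those of HMOX1 most closely over the 9 libraries, out of 12806, were DCAKD, FADS2 and RIMS4 (Pearson r of 0.977, 0.976 and 0.976). For KEAP1 they were PSD, CDC20 and ANP32B (r of 0.979, 0.971 and 0.967). The points share their libraries and groups, so these values describe likeness over 3 groups. Among pairs of the 9 tested genes, TXNRD1 and FTL had an r of -0.779 and TXNRD1 and KEAP1 of 0.855.

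In both knockdowns, genes whose 3′ UTR held certain 7-base sequences had lower log2 fold changes. The sequences were found in these data, out of 16199, after adjustment for UTR length and base composition in 10976 genes. They had the most negative difference in mean change relative to its standard error, which is not the same as the largest difference. The figures that follow are therefore descriptions. They use calls and log2 fold changes without that adjustment, so differences in UTR length and base composition are not removed from them. The sequences of the siRNAs were not used here, so whether the 7-base sequences match them was not tested. For the SIN3A knockdown they were GGTCTAA and AGGTCTA, held by 9.13% of the genes. Of genes that fell 17.7% held either, against 6.36% of those that rose and 8.25% of those not called. HMOX1, TXNRD1 and GCLM held 1 site each, printed here with 8 flanking bases from GENCODE 29 transcripts and with the matched bases in capitals.
HMOX1 (chr22:35394155-35394177, plus strand): gtggccttGGTCTAActtttgtg
TXNRD1 (chr12:104349250-104349272, plus strand): tgtgtgctGGTCTAAgcaagctg
GCLM (chr1:93885837-93885860, minus strand): atgataaaAGGTCTAAggttcatt
HMOX1 and TXNRD1 are the 2 genes of the 9 that fell in the SIN3A knockdown. Of the 6 tested genes without a site, 1 rose and 0 fell. Of all genes searched, 24.8% of those with a site fell and 12.1% rose, against 11.6% and 17.9% of those without. The part of these sites in the fall of HMOX1 and TXNRD1 was not tested.

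For the SIN3B knockdown the sequences were ACAGCCT and CAGCCTT, held by 29.1% of the genes, by 42.5% of those that fell, 22.5% of those that rose and 27.7% of those not called. NQO1 and KEAP1 held 1 site each, and neither was called in that knockdown.
NQO1 (chr16:69709615-69709637, minus strand): aatgggagACAGCCTcttacttg
KEAP1 (chr19:10486429-10486451, minus strand): tgtccaagACAGCCTggctggga
HMOX1 held no site of this kind and fell in the SIN3B knockdown, and SLC7A11, GCLC and FTH1, which rose, held none either. In the 8 lists, 37 genes held a site, of which 5 rose and 11 fell, against 8 that rose and 14 that fell of 90 without. Of all genes searched, 22.3% of those with a site fell and 13.5% rose, against 12.4% and 19% of those without. GSR, FECH, NFE2L1 and IDH1 were among the fallen genes with a site, and CUL3, IREB2, PRDX1 and SELENOT among the risen ones. In the SIN3A knockdown 10 genes of the lists held a site, of which 2 rose and 3 fell. Of the 117 without, 22 rose and 15 fell. IDH1 and GSK3B were among the fallen genes with a site and MAFK among the risen ones. The part of the sites in these changes was not tested.

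**Figure D4:**
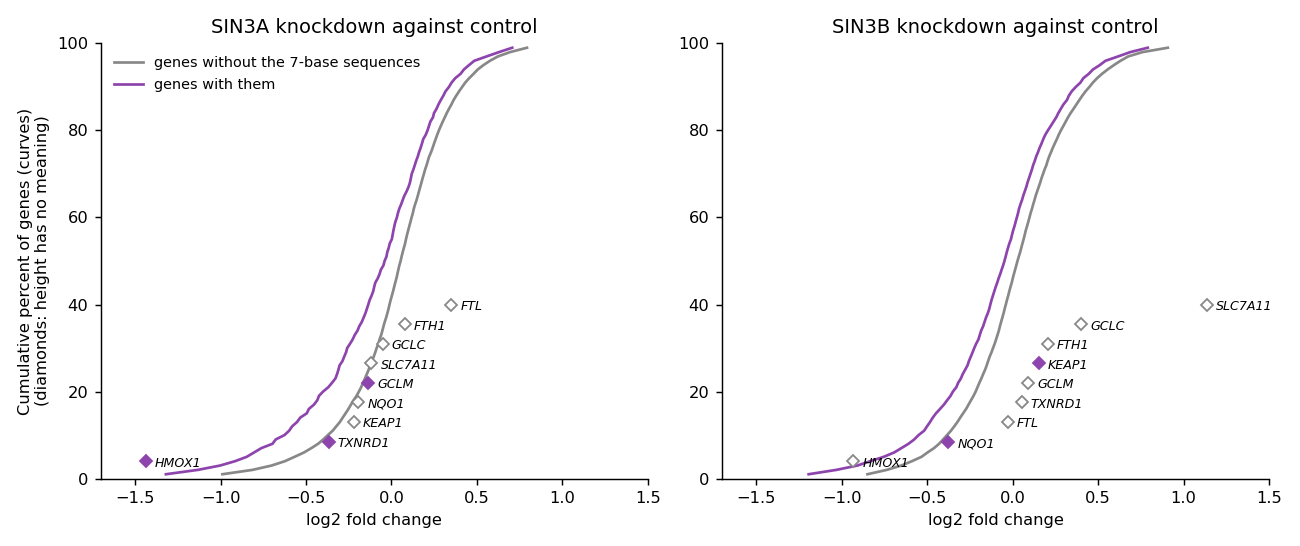
Cumulative percent of genes (vertical axis, curves) against log2 fold change (horizontal axis) for genes with and without the 7-base sequences in their 3′ UTR, in each knockdown. Diamonds mark the 9 tested genes at their own change, filled where a site is present, and their height has no meaning. The changes shown were not adjusted for UTR length or base composition. Genes with the sequences lie to the left (medians -0.04 against 0.05 for SIN3A and -0.05 against 0.03 for SIN3B), and HMOX1 is filled in the SIN3A panel and open in the SIN3B panel.

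Promoter sequence was compared with the changes for 7 of the 10 genes, whose 9 windows of 300 bases around gene starts (250 before, 50 after) are in RefSeq's table (GRCh38.p14). HMOX1, SLC7A11 and FTH1 have no window there. The core of the antioxidant response element, TGACNNNGC searched on both strands, occurred in 13.3% of 35116 such windows. GCLM had 1 match, TXNRD1 had 3 over its 2 windows and KEAP1 had 2 over its 2 windows. GCLC, NQO1, FTL and SRXN1 had 0 in theirs. The matches nearest to the start are shown for GCLM, TXNRD1 and KEAP1, the genes that hold the element in these windows. Capitals mark the element, which lies on the opposite strand in each.
GCLM (chr1:93909446-93909474, minus strand): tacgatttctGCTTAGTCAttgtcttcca
TXNRD1 (chr12:104215761-104215789, plus strand): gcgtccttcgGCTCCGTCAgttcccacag
KEAP1 (chr19:10502784-10502812, minus strand): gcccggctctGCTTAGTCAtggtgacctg
TXNRD1 fell after SIN3A knockdown, whereas GCLM and KEAP1 were not called against control in either knockdown. TXNRD1 and KEAP1 were lower in the SIN3A than in the SIN3B knockdown. Of the tested genes without a match, GCLC rose after SIN3B knockdown, FTL rose after SIN3A knockdown and NQO1 was not called. The E-box CACGTG, the binding motif of MYC and MAX, stood in 7.26% of all windows and in 0 of the 9. A match is a description of letters in this window and not evidence of binding. Sequence further from the start was not searched. A window with 0 matches therefore does not show that its gene lacks the element.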

How the data were processed

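RNA was measured in 9 HEK293T libraries, 3 for each siRNA. Read counts per Ensembl gene were deposited by the authors, who per the submitters' processing notes used Trimmomatic 0.36, HISAT2 2.1.0 on GRCh38 and HTSeq (its version and strand setting are not given in the sources used here), with DESeq2 1.20.0 for their own tests. FPKM values of the same genes and libraries were deposited by the authors and used in alternatives, with limma 3.58.1 on log2 of FPKM plus a pseudocount of 1 or 0.1. The deposited counts went unchanged into edgeR 4.0.16 under R 4.3.3: TMM factors, a minimum count of 10 in filterByExpr, and the quasi-likelihood test in 1 fit of all 9 libraries (6 residual degrees of freedom). P-values are two-sided and adjusted by Benjamini-Hochberg over 16686 genes, with a threshold of 0.05. The scripts were tested on simulated data. Symbols, exon lengths and 3′ UTRs (the longest per gene) came from GENCODE 29, promoters from RefSeq, and figures from matplotlib 3.10.9.

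The genes and lists were chosen with earlier results of these data known. Named genes were the 10 genes, the NRF2 control list, the 3 called genes with the lowest adjusted p of each other list in each knockdown, and the 3 genes most like HMOX1 and like KEAP1. Of these, list genes whose call was lost when 1 library was left out are counted but not named, apart from NRF2 control genes. NRF2 control genes not called against control are likewise only counted, apart from BACH1 and MAFF. Some named list genes are not reported here. HMOX2, the genes named by 3′ UTR site and the 3′ UTR scan were added after seeing the data. Alternatives were other scaling factors and filters, DESeq2 1.42.0, fits of 6 libraries, a fold threshold, offsets for the GC content and length of exons, counts divided by 4, the replicate number as a block and leaving out each library.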

Additional observations from a re-analysis of the deposited data

How the results depend on the processing

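Of 567 log2 fold changes of the 9 tested genes under 21 alternatives, 539 kept their direction and side of the threshold, 17 lost the call, 6 gained one and 5 changed sign. HMOX1 in both knockdowns and SLC7A11 in the SIN3B knockdown kept their calls against control in all 21, and GCLC in the SIN3B knockdown and TXNRD1 and FTL in the SIN3A knockdown in all but the fold threshold of 1.2. That threshold left 1, 2 and 2 of the 9 genes called (SIN3A against control, SIN3B against control, SIN3A against SIN3B), 11, 19 and 22 pathway genes and 1218, 1416 and 1911 of all genes, against 3, 4 and 6, 42, 38 and 52, and 3791, 3934 and 4517. Same-numbered libraries of different groups had correlations of -0.17 to 0.0674 between their deviations from the group means, and 0 of the 9 libraries correlated best with its own number, so the numbers were not taken to pair them. With the replicate number as a block 3, 4 and 6 of the 9 genes, 36, 38 and 49 pathway genes and 3429, 3616 and 4236 of all genes were called. The block changed no call of the 9 genes. With it NFE2L2 lost its call after SIN3A knockdown (0.288, edgeR adjusted p = 0.0535) and MAFF gained one after SIN3B knockdown (-0.613, edgeR adjusted p = 0.043). Leaving out 1 library gave 25 to 47 pathway genes called in the SIN3A knockdown and 2601 to 4718 of all genes in the SIN3B knockdown (2601 without its replicate 2). It also gave log2 ranges that cross 0, none of them for a called change: -0.144 to 0.007 (GCLC), -0.367 to 0.004 (GCLM), -0.232 to 0.146 (SLC7A11), -0.095 to 0.032 (SLC3A2) and -0.056 to 0.115 (SIN3B) after SIN3A knockdown, and -0.04 to 0.022 (SLC3A2) and -0.033 to 0.012 (SIN3A) after SIN3B knockdown. The GC and length offsets changed signs of small changes to -0.219 (GCLM), 0.137 (FTL), 0.088 (HMOX2), 0.174 (SLC3A2) and 0.039 (SIN3A) after SIN3B knockdown and 0.061 (SLC3A2) after SIN3A knockdown. SIN3B after SIN3A knockdown was at -0.059 with upper-quartile factors and -0.003 on counts divided by 4, and SLC3A2 after SIN3B knockdown at 0.001 with a minimum count of 50. The cause of these changes was not tested. SRXN1, at 8 counts or fewer in each library, did not pass the count filter and was not tested. Its count is uncertain because of the exon bases it shares with AL121758.1.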
